A study of Mus musculus with 12 samples.

Results

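The mouse mitochondrial genome encodes 37 genes, and the deposited RNA-seq table of the abdominal aorta lists all of them: 13 protein genes, 2 ribosomal RNA genes and 22 tRNA genes, out of 55092 features. They were chosen by gene symbol alone, as every Ensembl gene whose symbol starts with mt-, and the set was taken up with earlier results of these data known. The table covers 12 male mice in 4 groups of 3, named here by the codes of the study. CFS mice carried a floxed Ccn2 gene without Cre (CCN2fl/fl) and received saline, and CSS mice carried the same floxed gene with Myh11-Cre-ERT2 (CCN2SMCΔ) and received saline. CFA mice were CCN2fl/fl with angiotensin II (Ang II), and CSA mice were CCN2SMCΔ with Ang II. Saline or Ang II at 500 ng/kg/min was delivered by mini-osmotic pump for 7 days. All mice, the Cre-negative controls included, had been given 5 doses of tamoxifen from 8 weeks of age followed by a 2-week washout. Because only the CCN2SMCΔ mice carried Cre, effects of Cre itself and of Ccn2 loss cannot be told apart. The Myh11 promoter drives the recombinase in smooth muscle, so that Ccn2 is left intact in the other cells of the vessel wall.

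Mitochondrial DNA is transcribed from both strands into long precursors, and most messenger RNAs are released when the tRNAs lying between them are cut out. The 13 proteins are core subunits of the respiratory chain: 7 belong to complex I (NADH dehydrogenase), mt-Cytb to complex III, mt-Co1, mt-Co2 and mt-Co3 to complex IV (cytochrome c oxidase), and mt-Atp6 and mt-Atp8 to the ATP synthase. The 2 rRNAs and 22 tRNAs serve the translation of those proteins inside the organelle, and all other mitochondrial proteins are nuclear-encoded. The heavy strand gives rise to 12 of the protein genes, both rRNAs and 14 tRNAs as annotated here, whereas mt-Nd6 and the remaining 8 tRNAs lie in the opposite orientation. The libraries were made from poly(A) RNA with a protocol that is not described as strand-specific, so that mt-Nd6 and transcripts antisense to it cannot be told apart, and mature tRNAs, which lack a poly(A) tail, are captured poorly.

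The tRNA sequences below come from the GENCODE M21 transcripts, 5′ to 3′ with the anticodon in capitals. The first 2 are the tRNAs with the highest FPKM in every library but CSA mouse 03, where mt-Ts2 (147) lay above mt-Tc (63.3). The third is a tRNA called lower in CSA than in CFA with and without CSA mouse 03, and the last 3 had no fragment in any library:
mt-Tp: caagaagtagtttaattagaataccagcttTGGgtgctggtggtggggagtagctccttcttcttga
mt-Tc: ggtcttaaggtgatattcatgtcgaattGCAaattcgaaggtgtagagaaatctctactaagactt
mt-Te: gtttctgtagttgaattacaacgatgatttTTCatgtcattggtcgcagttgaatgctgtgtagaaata
mt-Tf: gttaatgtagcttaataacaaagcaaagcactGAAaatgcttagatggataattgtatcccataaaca
mt-Td: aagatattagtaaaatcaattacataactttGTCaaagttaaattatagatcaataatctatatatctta
mt-Tk: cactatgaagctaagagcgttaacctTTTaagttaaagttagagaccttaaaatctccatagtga

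Values are FPKM, fragments scaled by gene length and library size, as deposited. The fragment totals recovered from the table ran from 14558578 (CSA mouse 03) to 23107799 (CFA mouse 71). CSA mouse 03 stood apart: over all tested genes it lay a root-mean-square log2 distance of 1.20 and 1.21 from CSA mice 01 and 02, which lay 0.505 from each other, and the other pairs within a group lay 0.586 to 0.743 apart. The main counts and shares involving CSA are therefore also given without that mouse. Ccn2, the targeted gene, measured 1013, 1105 and 563.5 FPKM in CFA and 255, 331 and 399 in CSA, with no overlap (log2 fold change -1.41, limma adjusted p = 0.0062, and -1.56 without CSA mouse 03). It measured 709.5, 1108 and 480.1 in CFS and 436, 639.9 and 587 in CSS, which overlapped (-0.40, limma unadjusted p = 0.256). A loss of Ccn2 RNA was thus not shown with saline. Genes were tested with limma on log2(FPKM + 0.1) over 14676 genes, and a gene was called when its Benjamini-Hochberg adjusted p was under 0.05 and its log2 fold change was beyond 1.5 in size. Of the 37 mitochondrial genes, 32 passed the filter of at least 1 FPKM in at least 3 libraries.

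The 13 protein genes together held 13.5, 11.7 and 12.7% of the FPKM column sum in the CFS mice and 8.33, 8.10 and 7.73% in the CSS mice. In CFA they held 10.4, 10.9 and 11.8%, and in CSA 4.43, 4.22 and 9.02%. Each CCN2SMCΔ mouse lay below each CCN2fl/fl mouse under the same infusion. The means were 12.6% ± 0.926 in CFS, 8.05% ± 0.304 in CSS, 11.04% ± 0.725 in CFA and 5.89% ± 2.72 in CSA (all SD, 3 mice), and that of CSA was 4.32% without mouse 03. The log2 difference in share between CSS and CFS was -0.65 (SE 0.069) and that between CSA and CFA was -0.997 (SE 0.36), each with p = 0.10 in a two-sided exact permutation test and 0.20 after adjustment over the 4 comparisons. With 3 mice against 3 this test cannot go below 0.10. CFA and CFS overlapped (difference -0.19, exact permutation p = 0.20, adjusted 0.267), as did CSA and CSS (-0.54, p = 0.40). Without CSA mouse 03 the difference was -1.35 against CFA and -0.90 against CSS. Counted in recovered fragments instead of FPKM, the protein genes held 4.47% ± 0.306 of the CFS libraries, 2.72% ± 0.105 of CSS, 3.97% ± 0.278 of CFA and 2.27% ± 1.05 of CSA (SD over 3 mice), or 1.66% of CSA without mouse 03.

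**Figure D1:**
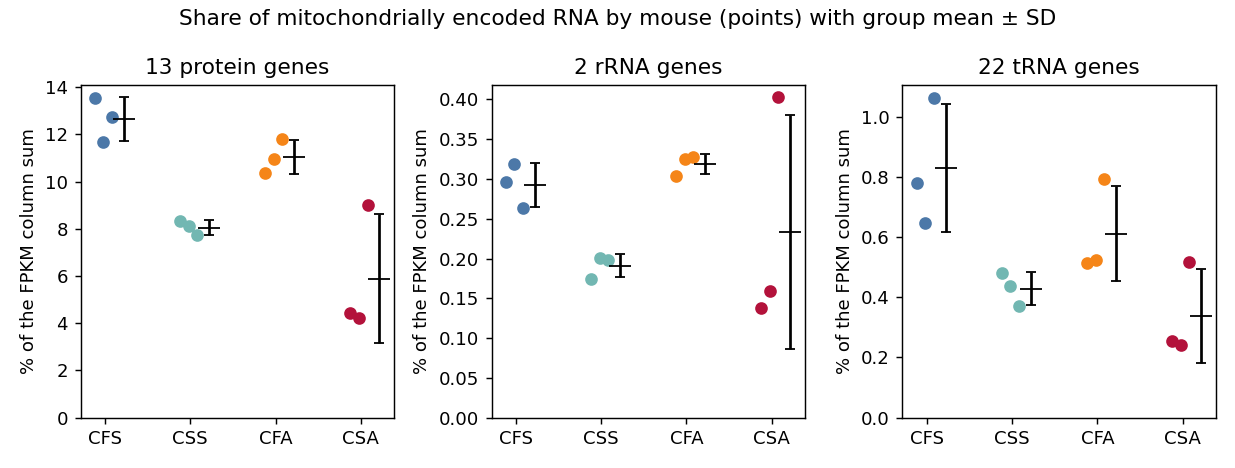
Share of the FPKM column sum (%, vertical axes from 0) held by the protein, rRNA and tRNA genes in each mouse (points) of the 4 groups, with the group mean ± SD (black, n = 3). Protein shares in CSS (7.73 to 8.33%) lie below all CFS mice, and CSA mouse 03 (9.02%) lies apart from CSA mice 01 and 02.

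In bulk tissue, fewer cells rich in mitochondrial RNA and less mitochondrial RNA per cell cannot be told apart. The cell composition of the CSA samples differed from that of CFA: the summed FPKM of 6 smooth muscle markers was 785 to 931 in CSA and 5377 to 8214 in CFA (6 of 6 genes lower at adjusted p under 0.05, limma), and Myh11 itself measured 35.4 to 46.5 against 695 to 733. The 6 macrophage markers summed to 1423 to 1620 in CSA and 232 to 453 in CFA, and the 4 neutrophil markers to 485 to 525 against 10.6 to 26.4, with all 6 and all 4 genes higher. The 6 adipocyte markers summed to 11.7 to 51.1 in CSA and 55.5 to 154 in CFA (3 of 6 lower), the 4 endothelial markers to 78.6 to 102 against 154 to 344 (2 of 4 lower), the 4 erythrocyte markers to 60.4 to 616 against 758 to 2469 (4 of 4 lower), and the 4 fibroblast markers to 3204 to 3893 against 1856 to 2040 (2 higher, 1 lower). The part of these cells in the lower mitochondrial share of CSA was not tested. Between CSS and CFS the smooth muscle sums overlapped (7565 to 8568 and 8010.3 to 10073), as did the macrophage sums (168 to 216 and 149 to 195). The adipocyte sums were 40.2 to 172 in CSS and 111 to 440 in CFS, which also overlapped. So did the neutrophil, endothelial and erythrocyte sums. The fibroblast sums did not overlap, with 849.9 to 1017 in CSS and 1136 to 1447 in CFS. None of the 4 fibroblast genes had an adjusted p under 0.05 there (limma), and 2 were lower at an unadjusted p under 0.05. The part of these cells in the lower mitochondrial share of CSS was not tested. Skeletal muscle markers summed to 139 in CFS mouse 68 and 210.0 in CSS mouse 55 and to 2.31 to 4.19 elsewhere.

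Within the protein genes, levels per length (FPKM) spanned a wide range. mt-Co1 was the highest, with a mean of 12132 FPKM ± 500.1 in CFS (SD, n = 3), and held 31.4 to 36.8% of the summed FPKM of the 13 genes in every mouse but CSA mouse 03. It was followed in CFS by mt-Cytb (6636 ± 265) and mt-Nd1 (5581 ± 159.8), then by mt-Nd2 (3972 ± 395), while mt-Nd4 (2954 ± 236), mt-Nd5 (2888 ± 219) and mt-Nd6 (2730.5 ± 498) did not differ beyond their spread. The other 6 protein genes, mt-Co2, mt-Co3, mt-Atp6, mt-Atp8, mt-Nd3 and mt-Nd4l, held only 0.715 to 1.07% of the sum of the 13 in any mouse. mt-Co2 measured 94.7 ± 5.89 FPKM in CFS, mt-Atp6 55.2 ± 22.3, mt-Co3 49.1 ± 3.67, mt-Nd4l 42.7 ± 4.25, mt-Nd3 38.2 ± 7.64 and mt-Atp8 2.71 ± 0.378.

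Of the 6 low genes, 5 share nearly their whole sequence with annotated nuclear pseudogenes on chromosome 1. The copies lie in 1 block on the minus strand (GRCm38, chromosome 1, 24611535 to 24616197) in the order of the mitochondrial genes. Gm28661 matches mt-Co2, Gm10925 matches mt-Atp6, Gm28437 matches mt-Co3 and Gm10222 matches mt-Nd4l at 100% identity, and Gm28438 matches mt-Nd3 at 99.71%. The single difference between mt-Nd3 and Gm28438 is T3C, counted from 1 at the 5′ end of the gene, and is shown in capitals in the first 33 bases of each:
mt-Nd3: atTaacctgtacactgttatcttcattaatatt
Gm28438: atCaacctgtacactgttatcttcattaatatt

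Of all 150-base windows, the read length of the study, 99.4% of mt-Co2, 99.4% of mt-Atp6, 99.8% of mt-Co3, 97.0% of mt-Nd3 and 98.0% of mt-Nd4l also occur in a nuclear transcript. The share was 59.2% for mt-Nd4, through Gm28439, 23.6% for mt-Co1, through Gm29216, and 0% for the 6 remaining protein genes and both rRNAs. A read from such a window has 2 equally good places in the genome, and how the authors' counting treated those reads is not given in the sources used here. The FPKM of these 5 genes and of the copies are therefore uncertain. The levels of the 5 genes are not compared with those of the other genes as levels of RNA. The 7 copies held 0.0316 to 0.0831% of the FPKM column sum. mt-Atp8 has no such window in an annotated transcript but lies in the mitochondrial genome between mt-Co2 and mt-Atp6, both of which have copies. The copies keep the order and spacing of the mitochondrial genes, and the nuclear sequence between them was not searched. Whether it also holds mt-Atp8 and the tRNA genes between the copied genes (mt-Ts1, mt-Td, mt-Tk, mt-Tg and mt-Tr) was not tested. mt-Atp8 is only 204 bases long. Its last 43 bases, in capitals, are also the start of mt-Atp6:
mt-Atp8: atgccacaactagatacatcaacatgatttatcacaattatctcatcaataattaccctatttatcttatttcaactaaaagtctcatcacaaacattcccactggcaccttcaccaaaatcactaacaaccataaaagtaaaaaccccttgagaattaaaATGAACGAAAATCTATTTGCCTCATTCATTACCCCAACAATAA
It rested on 1 to 11 fragments a library, compared with 138180 to 370778 for mt-Co1, and was the least precise of the protein genes.

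**Figure D2:**
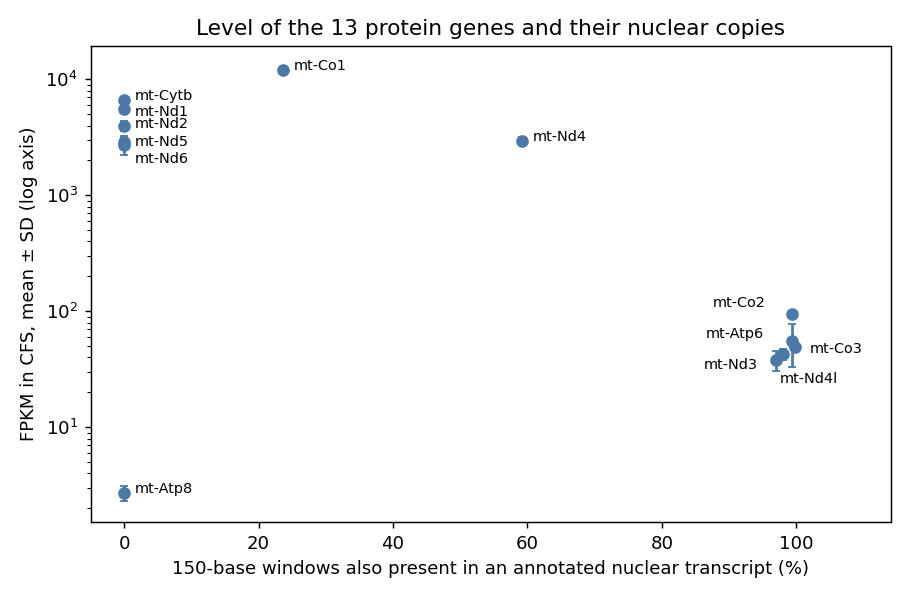
Mean FPKM ± SD of the 13 protein genes in the 3 CFS mice (log axis) against the share of their 150-base windows that also occur in an annotated nuclear transcript (%). The 5 genes at 97.0% or more lie between 38.2 and 94.7 FPKM, and mt-Atp8 (2.71) is the exception among the genes at 0%. Nuclear sequence outside annotated transcripts was not searched.

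With saline, the CCN2SMCΔ genotype went with lower values of most protein genes. Of the 13, 12 were lower on average in CSS than in CFS, with a median log2 fold change of -0.65 compared with 0.01 over all tested genes, and in 11 of the 13 every CSS mouse lay below every CFS mouse, compared with 9.31% of all tested genes. None was called (0.0136% of all tested genes were called, in either direction) and none reached an adjusted p under 0.05 in limma, where adjusted p-values ran from 0.22 to 1. An unadjusted p under 0.05 was found for 9 of the 13, all lower, compared with 3.22% of all tested genes. When CSA mouse 03, which is in neither group but enters the shared estimate of spread, was left out, 8 of the 13 had an adjusted p under 0.05 and were lower, compared with 0.235% of all genes tested. The fold changes themselves were the same in both fits. Each replicate is 1 mouse.

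In complex I, mt-Nd6 (chromosome M, 13552 to 14070, minus strand) measured 3297, 2360.2 and 2534 FPKM in CFS and 1699.8, 1506 and 1478 in CSS, without overlap. Its log2 fold change was -0.79 (SE 0.16, limma adjusted p = 0.22, and 0.0327 without CSA mouse 03). mt-Nd2 (3914 to 4951) measured 4421, 3679 and 3816 in CFS and 2472, 2185 and 2239 in CSS, again without overlap, a log2 fold change of -0.79 (SE 0.24, adjusted p = 0.515, and 0.0147 without CSA mouse 03). The fold changes of mt-Nd1 (-0.70), mt-Nd4 (-0.64), mt-Nd5 (-0.76) and mt-Nd4l (-0.65) were close to these. mt-Nd3 was the exception, with 34.0, 33.5 and 47.0 FPKM in CFS and 45.3, 42.8 and 42.7 in CSS, which overlapped (0.21, SE 0.16, limma adjusted p = 1).

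mt-Cytb, the only mitochondrially encoded subunit of complex III (14145 to 15288), measured 6585, 6399.8 and 6923 FPKM in CFS and 4439, 4219 and 4181 in CSS (log2 fold change -0.63, SE 0.17, limma adjusted p = 0.392, and 0.0187 without CSA mouse 03). mt-Co1, the catalytic subunit of complex IV (5328 to 6872), measured 12137, 11630.1 and 12630.3 in CFS and 7749.5, 7331 and 6864 in CSS (-0.73, SE 0.31, adjusted p = 0.735, and 0.0134 without CSA mouse 03). The groups did not overlap for either gene. mt-Co2 (-0.58), mt-Co3 (-0.52) and mt-Atp8 (-0.91) did not overlap either, whereas mt-Atp6 did (-0.38). mt-Atp6 was high in CFS mouse 68 (81.0 FPKM) and CSS mouse 55 (70.9) and 29.9 to 42.9 in the other 4 mice, and those were also the 2 mice with skeletal muscle markers, whose part in these values was not tested.

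With Ang II the same comparison gave larger differences. All 13 protein genes were lower on average in CSA than in CFA, with a median log2 fold change of -1.10 compared with -0.04 over all tested genes. Of them, 10 fell at an adjusted p under 0.05 (limma), compared with 21.2% of all tested genes that fell, and 2 were called, mt-Nd2 and mt-Nd4l, compared with 8.27%. mt-Nd2 was short of the fold limit with FPKM scaled to the column sum (-1.46) and without CSA mouse 01 (-1.40) or 02 (-1.33). In 10 of the 13 every CSA mouse lay below every CFA mouse, compared with 25.1% of all tested genes. With CSA mouse 03 left out, 12 of the 13 fell (25.7% of all genes tested), with a median of -1.32, and 4 were called (7.53%).

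By complex, all 7 genes of complex I fell, as did mt-Cytb and 2 of the 3 genes of complex IV, while neither gene of the ATP synthase passed the test. mt-Nd4l (9877 to 10173) measured 29.98, 29.4 and 30.3 FPKM in CFA and 9.45, 9.37 and 8.13 in CSA, a log2 fold change of -1.73 (SE 0.15, limma adjusted p = 8.19e-06), and -1.66 without CSA mouse 03. CSA mouse 03 was here the lowest of the CSA mice. mt-Nd2 measured 2832, 2921 and 3073 in CFA and 839, 763 and 1623 in CSA (-1.54, SE 0.24, adjusted p = 0.000432), with CSA mouse 03 between the groups, and -1.88 when it was left out. mt-Nd6 measured 2218, 2345 and 2320.4 in CFA and 1065, 1088 and 816 in CSA (-1.22, SE 0.16, adjusted p = 0.000138), where CSA mouse 03 was the lowest of all 12 mice, and -1.09 without it. mt-Nd1 (-1.04), mt-Nd3 (-0.81), mt-Nd4 (-1.13) and mt-Nd5 (-1.22) fell with adjusted p-values of 0.00834, 0.00168, 0.00431 and 0.000515, and were at -1.43, -0.90, -1.51 and -1.47 without CSA mouse 03. mt-Nd1 did not pass with only CFA and CSA in the fit (adjusted p = 0.0671).

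mt-Cytb measured 5576, 6463 and 6109.6 FPKM in CFA and 2044, 2073 and 3182 in CSA, a log2 fold change of -1.34 (SE 0.17, limma adjusted p = 1e-04), without overlap, and -1.55 without CSA mouse 03. mt-Co1 measured 10466, 11167 and 11321 in CFA and 4405, 4371 and 11600.0 in CSA, where mouse 03 was above all CFA mice (-0.86, SE 0.31, adjusted p = 0.0447). Without that mouse it was -1.32 (SE 0.10, adjusted p = 3.84e-06), whereas it did not pass without any one of the 11 other mice (adjusted p = 0.059 to 0.149), with no filter (0.0726), with FPKM scaled to the column sum (0.0662), without trend and robust estimation (0.0516) or with only the 2 groups in the fit (0.164). mt-Co2 fell (-0.98, SE 0.13, adjusted p = 0.000141, and -1.09 without that mouse), and mt-Co3 did not pass the test (-0.69, adjusted p = 0.0861), with 52.3 FPKM in CSA mouse 03 and 19.4 and 21.4 in the others. It did when CSA mouse 03 was left out (-1.14, adjusted p = 1.64e-05), as did mt-Atp6 (-1.28, adjusted p = 0.0211, compared with -0.96 and 0.0663 with all mice). mt-Atp8 passed in neither (-1.10 and -0.73). Reads from a shared window cannot be assigned to the gene or its copy, so the values of the copies are not a separate result. The values of the nuclear copies were lower on average too, from -0.60 for Gm29216 to -1.97 for Gm10222 with all mice. Gm29216 (limma adjusted p = 0.259) and Gm28661 (0.0525) did not pass there, and for Gm29216 CSA mouse 03 lay above all CFA mice. Without that mouse the copies ranged from -0.98 for Gm28661 to -1.90 for Gm10222, with Gm29216 at -1.21. What the copies add to the values of mt-Nd4l, mt-Nd3, mt-Co2, mt-Co3 and mt-Atp6 was not tested.

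**Figure D3:**
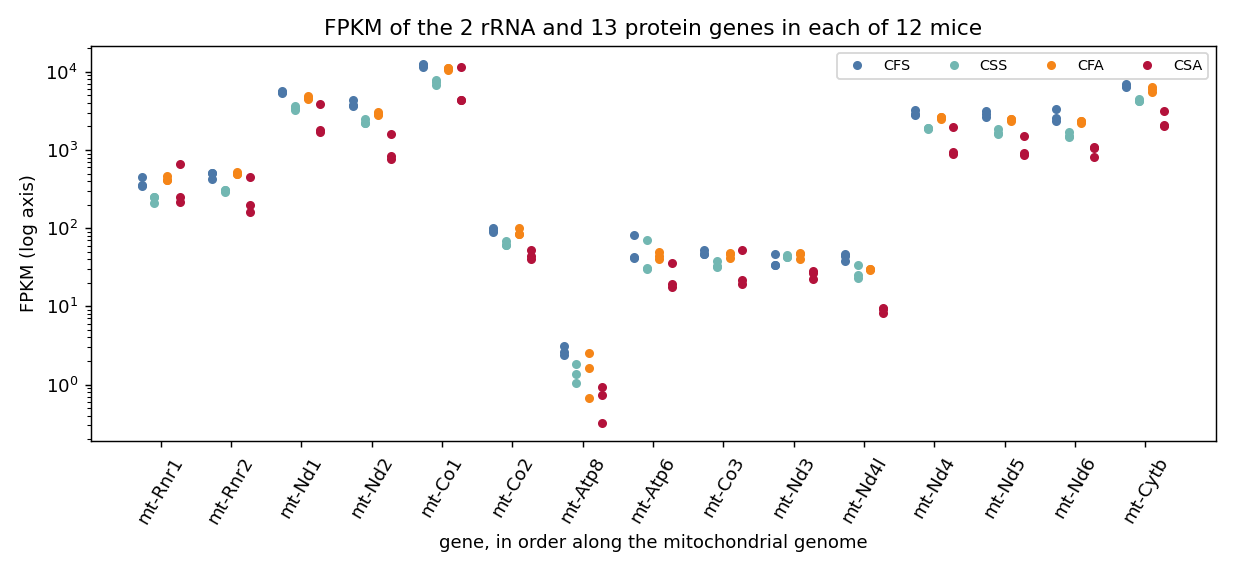
FPKM (log axis) of the 2 rRNA and 13 protein genes in each of the 12 mice, in order along the mitochondrial genome, with a colour for each group. CSS lies below CFS for 11 of the 13 protein genes, and 1 CSA mouse (03) lies apart from the other CSA mice for mt-Co1 and the rRNAs.

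**Figure D4:**
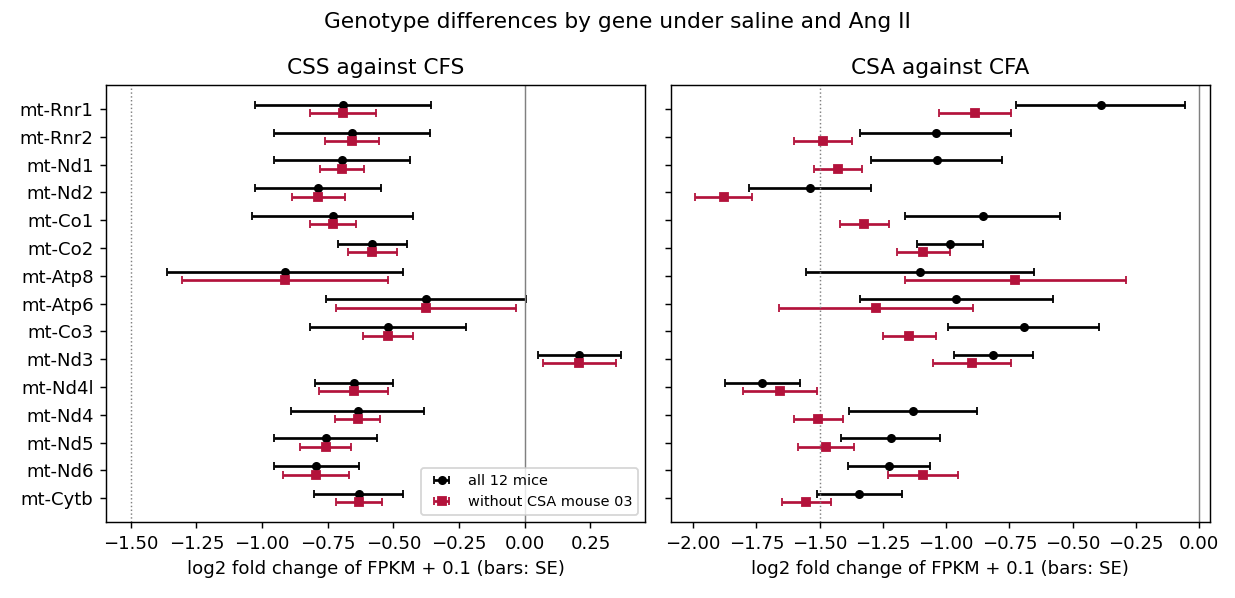
Log2 fold changes of FPKM + 0.1 with standard errors (limma) for CSS against CFS and CSA against CFA, with all 12 mice (black circles) and without CSA mouse 03 (red squares); the dotted line marks -1.5. With saline only the standard errors differ between the fits, and with Ang II mt-Rnr1 moves from -0.39 to -0.89.

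CSA mouse 03 differed from the other CSA mice by gene and not by a single factor. Relative to the CFA mean, CSA mice 01 and 02 lay between 0.259 (mt-Nd2, mouse 02) and 0.585 (mt-Nd3, mouse 02) for all 13 protein genes. In mouse 03 the ratio was 1.15 for mt-Co3, 1.06 for mt-Co1 and 0.834 for mt-Nd1 but 0.526 for mt-Cytb, 0.356 for mt-Nd6 and 0.272 for mt-Nd4l. mt-Co1 held 46.7% of the summed FPKM of the 13 protein genes in mouse 03, mt-Cytb 12.8% and mt-Nd6 3.29%, whereas in the other 11 mice mt-Cytb held 16.9 to 19.4% and mt-Nd6 6.70 to 9.15%. The same library had the lowest depth and 12 of the 22 tRNAs at 0. Of these, 7 were tested tRNAs and 3 were at 0 in every library, and CSA mice 01 and 02 also had tRNAs at 0. CSA mouse 03 held 0.0779% of its FPKM in Gm23935, a short row annotated as a miRNA that held 3.22 and 4.55% in CSA mice 01 and 02. The part of these in the pattern was not tested.

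**Figure D5:**
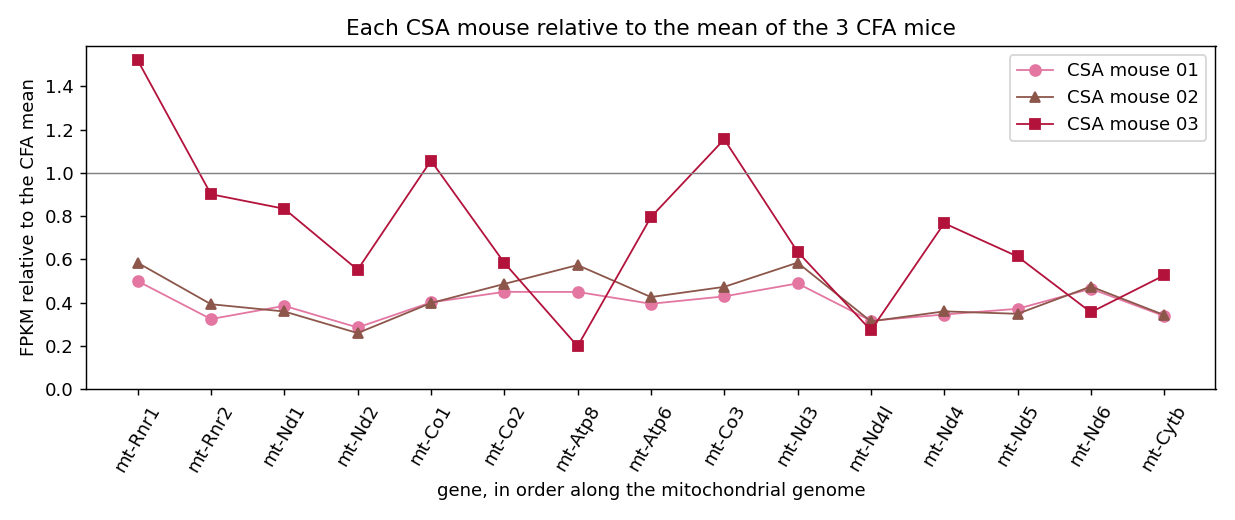
FPKM of each CSA mouse relative to the mean of the 3 CFA mice (vertical axis, ratio from 0; grey line at 1) for the 2 rRNA and 13 protein genes in order along the mitochondrial genome. Mice 01 and 02 run together at or below 0.585, and mouse 03 ranges from 0.198 (mt-Atp8) to 1.52 (mt-Rnr1).

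The 2 ribosomal RNA genes encode the RNAs of the small (mt-Rnr1, 12S) and large (mt-Rnr2, 16S) mitochondrial ribosomal subunits. In a poly(A) library they stood far below the main messenger RNAs, and together held 0.293% ± 0.0275 of the FPKM column sum of CFS and 0.191% ± 0.0143 of that of CSS (SD over 3 mice). mt-Rnr1 (chromosome M, 70 to 1024) measured 344, 448 and 358 FPKM in CFS and 211, 249 and 248 in CSS, and mt-Rnr2 (1094 to 2675) measured 501, 513 and 424 in CFS and 292, 305 and 310.2 in CSS. Neither overlapped, and neither reached an adjusted p under 0.05 (log2 fold changes -0.69 and -0.66, limma adjusted p = 0.818 and 0.79). When CSA mouse 03 was left out, mt-Rnr2 did (0.0327) and mt-Rnr1 did not (0.0519).

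With Ang II, mt-Rnr1 measured 408, 467 and 414 FPKM in CFA and 215, 251 and 653 in CSA, where mouse 03 was the highest of all 12 mice. The difference was -0.39 (SE 0.33, limma adjusted p = 0.382), and -0.89 (SE 0.14, adjusted p = 0.000555) without that mouse. mt-Rnr2 measured 493, 522 and 495 in CFA and 163, 198 and 454 in CSA (-1.04, SE 0.30, adjusted p = 0.0164), -1.49 without mouse 03, and not past the threshold with only the 2 groups in the fit (adjusted p = 0.0913) or without CSA mouse 01 (-0.75, 0.057) or 02 (-0.89, 0.0591). Neither rRNA was past the fold limit in either fit, and mt-Rnr1 reached an adjusted p under 0.05 also with all mice when libraries were weighted by limma's array weights (-0.79, adjusted p = 0.00055).

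The tRNA genes, 59 to 75 bases long, are shorter than a sequencing read, and an FPKM from such a gene rests on few fragments. Only mt-Tp, the tRNA for proline (15356 to 15422), had at least 100 fragments in every library (551 to 2796), and it held 57.0 to 77.0% of the summed FPKM of the 22 tRNAs. The 8 tRNAs annotated on the minus strand, among them mt-Tp and mt-Tc, held 79.0 to 92.6%. mt-Tf, mt-Td and mt-Tk had no fragment in any library, which allows up to 3 fragments in each, and mt-Tv and mt-Ts1 had at most 4 and 1. These 5 were not tested, and 17 were. Of the 5, mt-Td, mt-Tk and mt-Ts1 lie between genes with nuclear copies, and whether they are copied too was not examined.

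mt-Tp measured 1619, 1324 and 2419.6 FPKM in CFS and 904, 804 and 595 in CSS, without overlap (log2 fold change -1.20, SE 0.36, limma adjusted p = 0.498). In CFA it measured 1056, 1037 and 1555 and in CSA 405, 457 and 1047, where mouse 03 overlapped with CFA (-1.05, SE 0.36, adjusted p = 0.0377, and -1.47 without it). It did not pass with no filter (adjusted p = 0.0641), with FPKM scaled to the column sum (0.0561) or without any one of 7 mice (0.0514 to 0.131): CFA 71, 72 and 74, CFS 68, CSA 01 and 02, and CSS 55. mt-Tc, the tRNA for cysteine, measured 215, 239.7 and 289 in CFS and 122, 98.9 and 107 in CSS (-1.18, adjusted p = 0.255, and 0.0441 without CSA mouse 03). It was 123, 164 and 204 in CFA and 122, 85.7 and 63.3 in CSA (-0.88, adjusted p = 0.0153, and -0.65 without CSA mouse 03), which did not pass without CFA mouse 74 (-0.71, 0.0641). In CSS against CFS, 12 of the 17 had a negative log2 fold change. Among these, mean FPKM was higher in CSS for mt-Ta (1.85, compared with 1.64 in CFS) and mt-Tr (13.7, compared with 13.4). Of the 17, 6 were lower without overlap (9.31% of all tested genes), and none had an adjusted p under 0.05 with all mice (2 lower and 1 higher at an unadjusted p under 0.05 in limma, where 3.22% of all tested genes were lower).

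In CSA against CFA all 17 tested tRNAs had a negative log2 fold change. Mean FPKM was nonetheless higher in CSA for mt-Ts2 (59.6, compared with 45.4 in CFA) and mt-Tt (3.01, compared with 1.62). Of the 17, 8 were lower without overlap (25.1% of all tested genes), and 6 fell at an adjusted p under 0.05 in limma (21.2%). These were mt-Te, mt-Tw, mt-Ty, mt-Tl1, mt-Tc and mt-Tp, of which only mt-Te passed with just the 2 groups in the fit. mt-Te, the tRNA for glutamate (14071 to 14139), which lies between mt-Nd6 and mt-Cytb, measured 88.5, 59.4 and 62.9 FPKM in CFA and 10.7, 3.42 and 0 in CSA, compared with 63.9, 71.9 and 50.6 in CSS. mt-Ty measured 23.3, 33.1 and 38.7 in CFA and 7.35, 5.63 and 0 in CSA, and mt-Tw 21.9, 16.2 and 28.2 and then 8.82, 1.41 and 0. These 3 were called (8.27% of all tested genes), with log2 fold changes of -5.47, -4.26 and -4.29 that depend on the pseudocount because CSA mouse 03 had no fragment. Without that mouse they were -3.49, -2.25 and -2.56, still called, whereas mt-Ty was not called without CFA mouse 72 or 74 (adjusted p = 0.0512 and 0.0617). mt-Tl1, the tRNA for leucine that follows mt-Rnr2, measured 37.3, 39.6 and 38.4 in CFA and 17.1, 8.17 and 26.97 in CSA (-1.30, SE 0.32, adjusted p = 0.0075, and -1.69 without mouse 03). In the fit without CSA mouse 03, 9 of the 17 fell (25.7% of all genes tested) and 6 were called (7.53%), mt-Tl1, mt-Tq and mt-Ts2 in addition. mt-Ts2 measured 147 FPKM in CSA mouse 03 and 14.2 and 17.6 in the other CSA mice, compared with 45.1, 51.9 and 39.2 in CFA. Its log2 fold change was -0.44 (limma adjusted p = 0.644) with all mice and -1.51 (0.00058) without that mouse. mt-Tq measured 23.0 in CSA mouse 03 and 0.694 and 0 in the others (-2.78, adjusted p = 0.141, and -4.90, 0.000259). The remaining tested tRNAs were at or below 80.4 FPKM in every mouse.

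Ang II in CCN2fl/fl mice gave smaller differences. Of the 13 protein genes, 12 were lower on average in CFA than in CFS, with a median difference of -0.23 (log2), and in 7 the groups did not overlap, compared with 10.8% of all tested genes. None of the 32 tested mitochondrial genes was called or had an adjusted p under 0.05 in limma (0.0273% of all tested genes were called, in either direction), and an unadjusted p under 0.05 was found for 2 lower and 2 higher (3.81 and 5.61% of all tested genes). Without CSA mouse 03, which is in neither group, 7 were lower, 5 of them protein genes (8.82% of all genes tested), and 2 higher. With array weights, the setting that estimates a weight for each library, the count called was also 0, and mt-Nd2 was lower at an adjusted p under 0.05 (-0.48, adjusted p = 0.0468), compared with 1.12% of all tested genes. mt-Nd2 measured 4421, 3679 and 3816 FPKM in CFS and 2832, 2921 and 3073 in CFA (-0.43, SE 0.24, adjusted p = 0.65). The rRNAs overlapped, with fold changes of 0.17 and 0.08.

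In CCN2SMCΔ mice, Ang II gave lower averages for all 13 protein genes in CSA than in CSS, with a median of -0.69. Of them 8 fell at an adjusted p under 0.05 (limma), as did 4 tRNAs, compared with 23.9% of all tested genes. With only the 2 groups in the fit 5 protein genes and 2 tRNAs did, mt-Nd4 (adjusted p = 0.142), mt-Nd5 (0.0664) and mt-Co2 (0.051) being lost. The share of all tested genes that passed in that fit is not given, so its counts are not read as a result about the mitochondrial genes. mt-Nd4 was also lost without any one mouse other than CSA mouse 03 (0.0573 to 0.154), and mt-Nd5 without CSA mouse 01 or 02 or CSS mouse 54 (0.0519 to 0.0559). Those called were mt-Nd4l (-1.58, and -1.51 without CSA mouse 03), mt-Te, mt-Tw and mt-Ty, compared with 9.36%, and mt-Tw and mt-Ty were not called with only the 2 groups in the fit (adjusted p = 0.0901 and 0.102). mt-Nd4l was short of the fold limit with a pseudocount of 1 (-1.49) and without CSS mouse 56 (-1.42). mt-Tw was not called without CSS mouse 54 or 56 (adjusted p = 0.0502 and 0.0616), nor mt-Ty without any one CSS mouse (0.0552 to 0.07). Without CSA mouse 03, 12 of the 13 protein genes fell (28.5% of all genes tested) with a median of -0.94, and mt-Te, mt-Tw and mt-Ty were at -3.32, -2.11 and -1.90 compared with -5.30, -3.85 and -3.91 with all mice. The CSA mice enter both this comparison and that with CFA, so that the 2 are not independent.

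Whether the genotypes differed more with Ang II than with saline was tested as an interaction. It was negative for all 13 protein genes (median -0.46), and 3 of them, with 1 tRNA, had an adjusted p under 0.05 (limma), compared with 13.7% of all tested genes. These were mt-Cytb (-0.71, SE 0.24, adjusted p = 0.0488), mt-Nd3 (-1.02, SE 0.22, adjusted p = 0.00615), mt-Nd4l (-1.08, SE 0.21, adjusted p = 0.00344) and mt-Tg (-1.89, SE 0.60, adjusted p = 0.0387). Only mt-Tg was called, compared with 7.31% of all tested genes. It was not called with no filter on low values (adjusted p = 0.0718) or without any one of 9 mice (0.0507 to 0.0882): CFA 71, 72 and 74, CFS 68 and 69, CSA 01, and CSS 54, 55 and 56. The count of 4 was 2 or 3 in most alternatives, and mt-Cytb did not pass without any one of the 11 mice other than CSA mouse 03 (0.0638 to 0.105). Without CSA mouse 03, 10 of the 13 protein genes passed (19.6% of all genes tested), the median was -0.73, and 12 of the 13 were negative, mt-Atp8 being at 0.19. mt-Tg measured 13.5, 5.50 and 18.8 FPKM in CFS, 22.9, 18.3 and 26.4 in CSS, 19.6, 23.6 and 27.1 in CFA and 7.24, 15.9 and 16.3 in CSA, on 7 to 39 fragments a library.

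The nuclear genes that serve the same organelle are given by list, with their counts, and their difference from the mitochondrial genes was not tested. In CSA against CFA, 7 of 82 tested nuclear-encoded respiratory chain subunits fell (21.2% of all tested genes) and 2 rose (19.5%), the median being -0.12, and 2 were called (8.27%). Those were Cox8b (-4.64, limma adjusted p = 0.000937), from 5.74, 8.77 and 9.43 FPKM to 0.410, 0.524 and 0, and Cox7a1 (-2.84, adjusted p = 0.0152), at -3.81 and -1.78 without CSA mouse 03, both muscle- and brown-fat-type subunits of complex IV. Of 77 tested mitochondrial ribosomal proteins 1 fell and 7 rose (median 0.14), among them Mrpl52 (0.97, adjusted p = 0.0025, and 1.17 without CSA mouse 03), whereas Mrps34 was at -1.09 (adjusted p = 0.324, and 0.24 without it). In CSS against CFS none of the 213 tested genes of the 7 lists had an adjusted p under 0.05 in limma, 8 were lower at an unadjusted p under 0.05, of which 7 were respiratory chain subunits (7 of 82) and 1 a ribosomal protein (1 of 77), compared with 3.22% of all tested genes, and the median was -0.17 for the respiratory chain subunits and -0.05 for the ribosomal proteins.

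None of the 8 transcription factors and cofactors of mitochondrial DNA passed the test in CSA against CFA, 2 having an unadjusted p under 0.05 (49% of all tested genes), and Mterf1a (0.71, limma adjusted p = 0.0651) and Tefm (0.48, 0.253) being farthest from 0. Without CSA mouse 03 Tefm was at 0.09, Mterf1a did not pass the filter, and 1 gene of the list fell, Tfb2m (-0.39, adjusted p = 0.0308). The counts that follow stand beside 21.2% of all tested genes that fell and 19.5% that rose. Of 14 tested genes of mitochondrial RNA processing and stability, 1 rose, Pnpt1 (polynucleotide phosphorylase, which degrades mitochondrial RNA), from 4.62, 5.12 and 4.95 FPKM in CFA to 9.36, 9.56 and 17.8 in CSA (log2 fold change 1.24, SE 0.21, adjusted p = 0.000873, and 0.94 without CSA mouse 03). Fastk, an RNA-binding protein, measured 15.6, 17.8 and 15.9 FPKM in CFA and 15.6, 15.3 and 3.49 in CSA (-0.79, adjusted p = 0.182, and -0.08 without CSA mouse 03). Of 9 tested genes of mitochondrial DNA replication Ssbp1 rose (0.93, adjusted p = 0.0125) and Rrm2b fell (-0.88, adjusted p = 0.00121), at 0.60 and -0.98 without CSA mouse 03. Of 17 aminoacyl-tRNA synthetases 1 fell and 1 rose, and Pars2 and Lars2, with the largest differences, passed no test (-1.29 and -0.81, adjusted p = 0.233 and 0.224, and -0.04 and -0.08 without CSA mouse 03). Of 6 regulators of mitochondrial biogenesis Gabpb1 rose (0.77, adjusted p = 0.0367, and 0.41 without CSA mouse 03), and Ppargc1b was at -0.70 (adjusted p = 0.233, and -1.08 without it). Leaving out CSA mouse 03 gave 8 lower and 7 higher for the respiratory chain subunits, and 1 lower and 19 higher for the ribosomal proteins, where 25.7% of all genes tested were lower and 21.3% higher. It gave 1 lower and 2 higher for each of RNA processing (Lrpprc lower, Pnpt1 and Tbrg4 higher), DNA replication (Rrm2b lower, Ssbp1 and Tk2 higher) and the regulators of biogenesis (Gabpa lower, Esrra and Gabpb1 higher), and 1 lower and 1 higher for the synthetases (Iars2 and Tars2). Genes named here only for passing without that mouse, Tfb2m included, were chosen after their values were seen.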

How the data were processed

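Poly(A) RNA of the abdominal aorta of 12 male mice was sequenced as paired 150-base reads. The authors deposited FPKM per gene, and their processing notes name HISAT2 2.0.5, StringTie 1.3.3b, featureCounts 1.5.0-p3 and mm10. Symbols, lengths and positions came from GENCODE M21 (GRCm38), where 54495 of 54532 Ensembl IDs matched. From 97.8 to 98.4% of values under 100 fragments were whole fragments within 0.02, which gave the library totals. limma 3.58.1 (R 4.3.3; trend and robust, 1 coefficient per group) was run on log2(FPKM + 0.1) for 14676 genes with at least 1 FPKM in at least 3 libraries, with Benjamini-Hochberg adjustment over all, and the script was tested on simulated data. No count test was run. Shares were compared by two-sided exact permutation tests over mice. Nuclear copies were sought with blastn against GENCODE nuclear transcripts (at least 99% identity over at least 25% of the gene). Fold changes are on the log2(FPKM + 0.1) scale: the pseudocount shrinks those of low genes, and a 0 in a library can make a fitted change larger than the ratio of the group means.

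All 37 genes are accounted for. From each nuclear list the 2 tested genes with the largest difference in CSA against CFA are named, with called genes and Ccn2. The members, lists and tests were chosen with earlier results of these data known. Of the lists, only Prorp was not found in the table. Alternatives covered scaling, filter, pseudocount, array weights, the samples in the fit and leaving out each mouse.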

Additional observations from a re-analysis of the deposited data

Results flagged for a closer look

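Of the 32 tested mitochondrial genes, 4 had genotype effects that differed between Ang II and saline at an adjusted p under 0.05 (limma, interaction). This count is near the share of all tested genes that passed in the same, negative direction, 13.7%, and does not set the mitochondrial genes apart. It was 2 to 5 in the alternatives other than array weights (17) and leaving out CSA mouse 03 (16, compared with 19.6% of all genes tested). With array weights the share of all tested genes is not given, so the 17 are not read as a result about the mitochondrial genes. The differences were -0.71 for mt-Cytb, -1.02 for mt-Nd3, -1.08 for mt-Nd4l and -1.89 for mt-Tg on the log2 scale. mt-Cytb was lower in CCN2SMCΔ mice under both infusions, not past the threshold with saline (limma adjusted p = 0.392), and more so with Ang II. Its interaction (adjusted p = 0.0488) did not pass without any one of the 11 mice other than CSA mouse 03 (0.0638 to 0.105). mt-Nd3 and mt-Tg were at 0.21 and 0.99 in CSS against CFS, neither past the threshold, and at -0.81 and -0.90 in CSA against CFA, where only mt-Nd3 passed. Without CSA mouse 03 the differences were -0.92, -1.10, -1.01 and -2.09. mt-Nd3 and mt-Nd4l share nearly all of their sequence with nuclear copies, whose part was not tested. mt-Tg lies between mt-Co3 and mt-Nd3, which both have copies, and the nuclear sequence between those copies was not searched.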

How the results depend on the processing

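The number of mitochondrial genes called in CSA against CFA was 5, 8 with array weights, 17 with no fold limit and 4 to 10 when each mouse was left out, the highest without CSA mouse 03. In CSA against CSS it was 4, 8 with array weights, 2 with only the 2 groups in the fit, 12 with no fold limit and 1 to 7 when each mouse was left out (1 without CSS mouse 56, 2 without CSS mouse 54 and 7 without CSA mouse 03). For the interaction it was 1, 6 with array weights, 2 with a mean FPKM of at least 5, 0 with no filter, 3 with a pseudocount of 1, 4 with no fold limit and 0 to 5 when each mouse was left out. It was 0 for CSS against CFS and CFA against CFS in every alternative. In CSS against CFS, 9 of the 13 protein genes had an adjusted p under 0.05 with array weights and 6 with only the 2 groups in the fit. The shares of all tested genes in the alternatives of this section are not given beside the counts. The counts in this section, for every comparison, are therefore not read as a result about the mitochondrial genes. In CSA against CFA, the mitochondrial genes with an adjusted p under 0.05 went from 17 to 10 with only the 2 groups in the fit (protein genes from 10 to 8). There mt-Nd1, mt-Co1, mt-Rnr2 and 5 tRNAs, the called mt-Tw and mt-Ty included, no longer passed. By contrast, mt-Tm passed there but not in the main fit (limma adjusted p = 0.0496, compared with 0.109). In CSA against CSS the mitochondrial genes that passed went from 12 to 7. The shares of the protein genes kept their direction in every alternative.

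Among single genes in CSA against CFA, mt-Tn turned to 0.17 with array weights and mt-Tt to 0.21 with a pseudocount of 1. When each mouse was left out, mt-Th ranged from -0.88 to 0.075, mt-Ts2 from -1.51 to 0.17 and mt-Tt from -1.70 to 1.35. The cause was not tested. No paired analysis was possible because the mouse numbers are not shared between groups. Precision is limited by 3 mice a group and, for tRNAs and mt-Atp8, by fragment counts.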
